A study of Mus musculus with 6 samples.

Results

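The 10 genes described here encode feedback inhibitors and response factors of fibroblast growth factor (FGF) signaling: *Spry1*, *Spry2*, *Spry4*, *Spred1*, *Spred2*, *Il17rd*, *Dusp6*, *Etv1*, *Etv4* and *Etv5*. They were found by symbol among the 23420 genes listed for the experiment, and all 10 were present and passed the filter on low values, which asked for 1 normalized count or more in 3 or more libraries. Normalized counts are reads of a gene scaled by a factor for each library. RNA was measured in whole embryonic mouse lungs at E11.5dpc, when branching begins. Control lungs were Raptorf/+; ShhCre/+ and mutant lungs were Raptorf/f; ShhCre/+, where f is a floxed allele of *Rptor* (*Raptor*), which encodes the scaffold protein of mTOR complex 1. There were 3 pools per genotype, with 3 or 4 lungs of 1 genotype in each pool, and controls were littermates of the mutants. Control and mutant embryos both carried a Cre recombinase knocked into 1 copy of *Shh*, so both had a single *Shh* allele of full function and both had at least 1 recombined *Rptor* allele in the epithelium, where *Shh* is active. The mesenchyme around the epithelium kept *Rptor* in both groups. Because RNA came from whole lungs, fewer cells of a type and less RNA per cell cannot be told apart in any value below.

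In the developing lung, FGF10 is secreted by the mesenchyme and binds FGFR2 on the epithelium, where a relay of kinases ends in active ERK. ERK signaling turns on the ETS transcription factors *Etv4* and *Etv5*, which are widely used as readouts of FGF activity at the growing epithelial tips. The same signal turns on its own inhibitors. The Sprouty and Spred proteins hold back the relay between receptor and RAF, IL17RD (Sef) acts at the receptor and on ERK, and DUSP6 removes phosphate from ERK in the cytoplasm. The comparison asks whether the levels of these genes differed between control lungs and lungs with both *Rptor* alleles floxed.

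In 5 libraries 20197642 to 21276090 reads per library were recovered. In control pool 3 the values were also whole multiples of 1 step (0.994, 100% of values), which gives 20830765 reads. That step was too near 1 for the recovery rule used here, so this library entered the count tests only in an alternative added after seeing the data. *Rptor* itself, the targeted gene, had 2126, 2193 and 2279 normalized counts in the control pools against 2023, 2137 and 2148 in the mutants, with a log2 fold change (mutant minus control, on log2 of the normalized count plus 1) of -0.06 ± 0.05 (SE) and an adjusted p of 0.584 (limma). These ranges overlapped, and reads outside the deleted part or from the mesenchyme count toward them. Markers of lung epithelium, *Cdh1*, *Epcam* and *Nkx2-1* among them, were lower in mutant lungs for 19 of 20 genes, of which 7 passed. Their summed normalized counts were 17547 to 21934 in control pools and 13867 to 14984 in mutant pools, and none was at 0. *Cldn6*, a tight junction gene and the most abundant of them, had 3147, 3389 and 2729 in the control pools against 1931, 1680 and 2029 in the mutants. All 12 mesenchymal markers were higher and 3 of them passed, with sums of 97560 to 104034 in control pools and 118158 to 125943 in mutant pools. The *Xist* RNA, made from the inactive X of females, stood at 4599, 309 and 12989 in the control pools against 41.9, 466 and 161 in the mutants, so the pools differed in their share of female embryos. Of the other marker lists, 1 of 5 mesothelial genes passed, higher in mutant lungs, and none of 8 endothelial, 5 smooth muscle, 6 neural, 4 macrophage, 4 erythroid and 6 cardiac muscle genes. Endothelial sums were 12329 to 14120 in control pools and 14342 to 14978 in mutant pools, with 7 of 8 genes higher. In the same order, smooth muscle sums were 6231 to 7359 and 7859 to 8816 (4 of 5 higher). Mesothelial sums were 3660 to 4253 and 4335 to 4786 (4 of 5 higher). Cardiac muscle sums were 1073 to 1202 and 856 to 933 (all 6 lower). Neural, macrophage and erythroid sums overlapped between groups. The part of the tissue makeup and of sex in the results for the 10 genes was not tested beyond the ratios and the covariate given below.

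None of the 10 genes passed an adjusted p of 0.05 with limma on log2 values, against 0.501% of all 17168 genes tested. The mean was higher in mutant lungs for 6 genes and lower for 4, and the log2 fold changes ran from -0.20 for *Etv5* to 0.17 for *Spry1*. Their median was 0.03, beside -0.00212 over all genes tested, and 6 of the 10 lay within 0.1 of 0, as did 49.8% of all genes. The median size of the change, without its sign, was 0.07 for the 10 genes and 0.07 for the 11458 genes with a mean of at least 100. *Spry1* (higher) and *Etv5* (lower) had an unadjusted p under 0.05, as did 13.6% of all genes, 6.67% higher and 6.89% lower. The control and mutant pools did not overlap for 1 gene, *Spry1*, which was higher, beside 20.2% of all genes (9.77% with the mutant pools higher). A p that misses the threshold does not show that the groups were alike, and the 95% intervals given with each gene below show which differences these pools leave possible.

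The sequences upstream of 3 of the genes are shown because they had the lowest unadjusted p of the 10, *Spry1* and *Spry2* with higher means in mutant lungs and *Etv5* with a lower one. Each is the 250 bases before an annotated transcription start in RefSeq (GRCm38.p6), written 5′ to 3′ on the strand of the gene. The *Spry1* window is chr3:37639697-37639946 on the plus strand, the *Spry2* window chr14:105896820-105897069 on the minus strand, and the *Etv5* window chr16:22438369-22438618 on the minus strand. Of the *Etv5* windows, the one with a motif word is shown. Capitals mark CAGGAA, or TTCCTG where it lies on the other strand, a 6-base word with the GGAA core that ETS factors such as ETV4 and ETV5 recognise. GGAA cores in other words are left in lower case, so a stretch without capitals can still hold the core.
*Spry1*: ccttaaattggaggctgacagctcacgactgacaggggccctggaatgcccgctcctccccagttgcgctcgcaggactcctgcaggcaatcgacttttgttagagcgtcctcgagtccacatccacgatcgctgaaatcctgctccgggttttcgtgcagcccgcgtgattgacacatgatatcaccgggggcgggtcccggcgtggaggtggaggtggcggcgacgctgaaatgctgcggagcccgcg
*Spry2*: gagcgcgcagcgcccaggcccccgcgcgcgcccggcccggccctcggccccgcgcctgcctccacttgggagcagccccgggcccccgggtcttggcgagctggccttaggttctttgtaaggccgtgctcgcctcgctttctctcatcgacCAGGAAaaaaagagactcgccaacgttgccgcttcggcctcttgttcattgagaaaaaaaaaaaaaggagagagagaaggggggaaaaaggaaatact
*Etv5*: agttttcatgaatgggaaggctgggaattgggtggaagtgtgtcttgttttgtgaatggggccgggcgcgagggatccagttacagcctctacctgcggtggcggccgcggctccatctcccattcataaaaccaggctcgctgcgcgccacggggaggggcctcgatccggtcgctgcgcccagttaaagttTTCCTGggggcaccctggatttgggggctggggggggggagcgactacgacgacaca
RefSeq windows, each with 250 bases before and 50 after a start, were found for 8 of the 10 genes, 10 windows in all, and none was found for *Spry4* and *Etv4*. They were searched on both strands for CCGGAA, which reads TTCCGG on the other strand, and for CAGGAA, which reads TTCCTG there. Neither word can hold the other. CCGGAA was in 1 of the 10 windows, that of *Spry2*, 33 bases after the start and so outside the bases shown, and in 14.9% of all 32851 windows of that length. CAGGAA was in 4 of the 10 windows and in 30.6% of all windows. It lay 98 bases before the start in *Spry2*, 57 before in the *Etv5* window shown, 236 before in *Spred1* and 21 after in *Etv1*. The *Spry1* window and the other *Etv5* window held neither word. No binding of a factor was measured in this experiment, so a word marks only where the letters are.

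Among the Sprouty and Spred inhibitors, 3 of 5 had higher means in mutant lungs, 2 had lower means, and none passed the test. *Spry1* (chromosome 3, 37639947 to 37644598, plus strand, GENCODE M21 on GRCm38), a cytoplasmic inhibitor of the relay, had 697, 686 and 639 normalized counts in the control pools against 718, 816 and 744 in the mutants. All mutant pools lay above all control pools, though the lowest mutant pool was close to the highest control pool. The log2 fold change was 0.17 ± 0.07 (SE, 95% interval 0.02 to 0.32), a difference of 12.5%, with an adjusted p of 0.303 (limma) and an exact permutation p of 0.1, the smallest that 3 pools against 3 allow. A transcript on the other strand that the annotation marks as unproven, *Gm42922*, overlaps 24.4% of the exon bases of *Spry1*. It is not listed in the table, and whether reads were counted by strand is not stated in the sources used here.

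*Spry2* (chromosome 14, 105891947 to 105896819, minus strand), the Sprouty gene of the growing epithelial tips in the mouse lung, had 563, 534 and 604 in the control pools against 603, 641 and 631 in the mutants. The ranges met at 1 point only, where the highest control pool and the lowest mutant pool were almost equal. The log2 fold change was 0.14 ± 0.07 (SE, 95% interval -0.01 to 0.29, adjusted p = 0.392, limma). *Spry4* (chromosome 18, 38586247 to 38601415, minus strand) had 308, 363 and 331 in the control pools against 309, 322 and 321 in the mutants, the fewest reads of the 10 genes. The mutant pools lay inside the control range, and the log2 fold change was -0.07 ± 0.08 (SE, 95% interval -0.26 to 0.12, adjusted p = 0.755, limma). The direction thus differed among the Sprouty genes, with none of the differences past the threshold.

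*Spred1* (chromosome 2, 117121374 to 117182279, plus strand) and *Spred2* (chromosome 11, 19924375 to 20024026, plus strand) encode membrane-bound relatives of the Sprouty proteins. *Spred1* had 1623, 1796 and 1729 in the control pools against 1763, 1908 and 1745 in the mutants, with overlapping ranges and a log2 fold change of 0.07 (95% interval -0.05 to 0.20, adjusted p = 0.601, limma). *Spred2* had 1095, 1087 and 1106 in the control pools against 1075, 1131 and 1051 in the mutants. Its control pools lay closest together of all 10 genes, with a coefficient of variation of 0.891%. Its log2 fold change was -0.01 (95% interval -0.13 to 0.10, adjusted p = 0.929, limma), which in percent is an interval from -8.34 to 6.98.

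**Figure D1:**
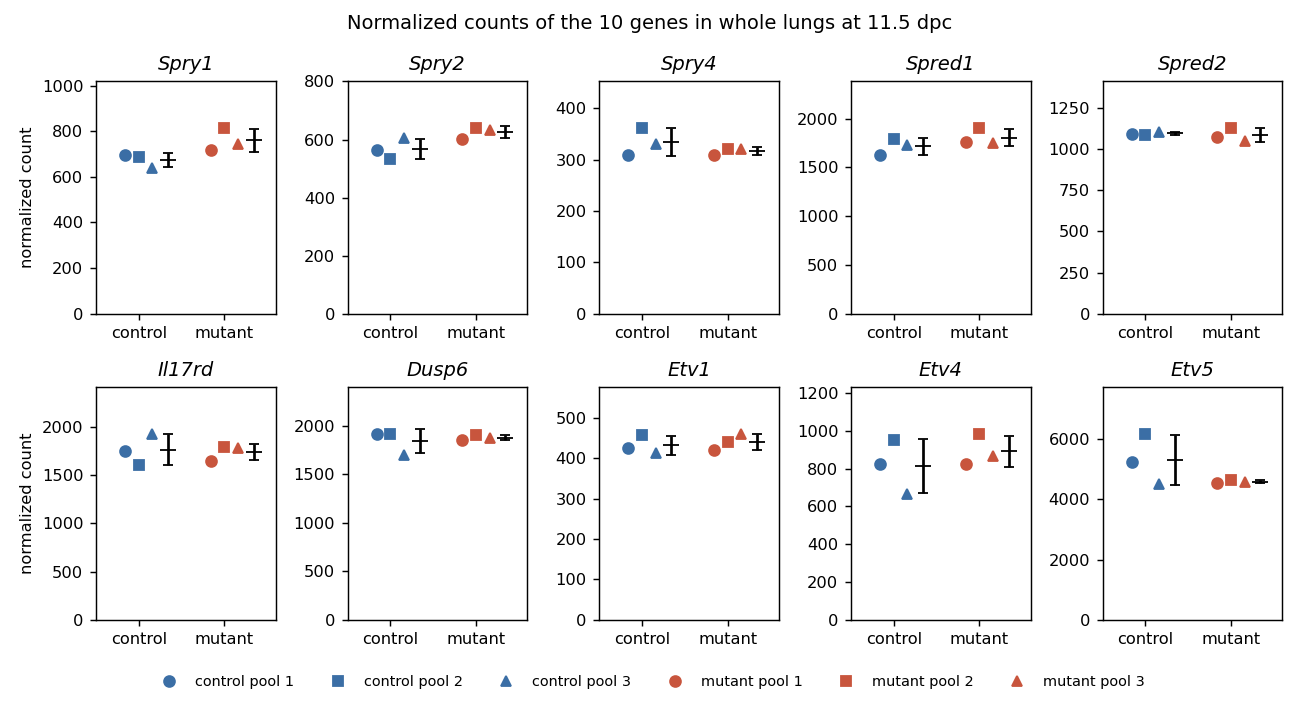
Normalized counts (vertical axis, from 0) of the 10 genes in each of the 3 control pools (blue) and 3 mutant pools (red) of whole lungs at E11.5dpc, with the mean (short bar) and SD (error bar) of each group beside the points. The groups are apart for *Spry1* (639 to 697 in control, 718 to 816 in mutant) and overlap for the other 9 genes, and the *Etv5* points are spread in control and close together in mutant pools.

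The inhibitors at the level of the receptor and of ERK differed by less than their spread. *Il17rd* (chromosome 14, 27038941 to 27107286, plus strand), a membrane protein that binds FGF receptors, had 1743, 1607 and 1927 in the control pools against 1641, 1787 and 1776 in the mutants. The mutant pools lay inside the control range, and the log2 fold change was -0.02 (95% interval -0.17 to 0.13, adjusted p = 0.936, limma). *Dusp6* (chromosome 10, 99263231 to 99267489, plus strand), the cytoplasmic ERK phosphatase and a common readout of ERK activity, had 1912, 1916 and 1701 in the control pools against 1848, 1904 and 1877 in the mutants. The mutant pools lay between the control pools, and the log2 fold change was 0.03 (95% interval -0.09 to 0.15, adjusted p = 0.867, limma). In percent, the interval for *Dusp6* ran from -6.23 to 10.8.

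Among the ETS factors, none passed, and they included the largest difference of the 10 genes, in *Etv5*, and the widest interval, in *Etv4*. *Etv1* (chromosome 12, 38779380 to 38870484, plus strand), the least abundant of them, had 424, 458 and 412 in the control pools against 420, 440 and 460 in the mutants. The ranges overlapped almost in full, with a log2 fold change of 0.03 (95% interval -0.13 to 0.19, adjusted p = 0.901, limma). *Etv4* (chromosome 11, 101769742 to 101785371, minus strand) had 823, 955 and 666 in the control pools against 823, 985 and 867 in the mutants. The control pools bracketed most of the mutant range, and the log2 fold change was 0.14 ± 0.12 (SE, 95% interval -0.12 to 0.40, adjusted p = 0.648, limma). Its coefficient of variation was 17.7% among control pools and 9.45% among mutant pools, where counting reads at this depth alone would give 3.42%.

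*Etv5* (chromosome 16, 22381309 to 22439719, minus strand) had 5244, 6183 and 4522 in the control pools against 4549, 4639 and 4592 in the mutants. The mutant pools sat at the bottom of the control range, just above control pool 3 and below the other control pools. The means were 5316 ± 833 and 4593 ± 44.9 (SD, n = 3 pools each), a log2 fold change of -0.20 ± 0.09 (SE, 95% interval -0.40 to -0.00119, adjusted p = 0.366, limma). The coefficient of variation was 15.7% among control pools and 0.977% among mutant pools, the latter below the 1.42% that counting alone would give. Without control pool 3 the fold change was -0.31 and passed (adjusted p = 0.0113, limma), where 2.75% of all genes did. It also passed on the reads of the same 5 libraries with edgeR (-0.32, adjusted p = 0.00879, with 3.68% of all genes called) and DESeq2 (-0.31, adjusted p = 2.59e-05, with 2.13% called). On the reads of all 6 libraries it passed with neither edgeR (-0.21, adjusted p = 0.320, with 0.539% of all genes called) nor DESeq2 (-0.21, adjusted p = 0.212, with 1.45% called). Without control pool 2 it was -0.08 (adjusted p = 0.525, limma). The call for *Etv5* thus depended on whether control pool 3 was included, with each of the 3 tools. Control pool 3 was also the lowest of the control pools in the epithelial markers (mean log2 value 8.93, against 9.24 and 9.33) and the highest in *Xist*. With log2 *Xist* as a covariate the fold change of *Etv5* was -0.43 (adjusted p = 0.0951, limma), and on a scale set by the epithelial markers it was 0.24 (adjusted p = 0.157, limma).

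**Figure D2:**
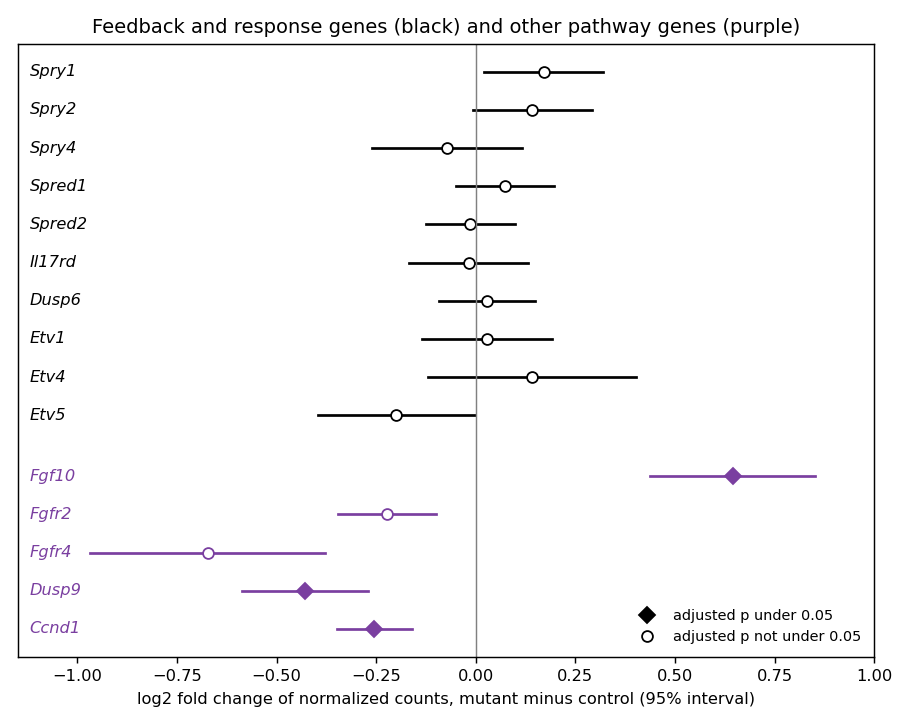
Log2 fold change of normalized counts, mutant minus control (horizontal axis), with its 95% interval from limma, for the 10 genes (black) and 5 other genes of the pathway (purple). Open circles did not pass an adjusted p of 0.05 and filled diamonds did. The 10 genes lie between -0.20 and 0.17, while *Fgf10* is at 0.64.

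*Etv4* and *Etv5*, which are close relatives, had the same order of pools within each group, highest in pool 2 in control and in mutant lungs. The log2 ratio of *Etv5* to *Etv4* was 2.67, 2.69 and 2.76 in the control pools against 2.47, 2.23 and 2.40 in the mutants. In linear terms there were 6.37, 6.48 and 6.79 *Etv5* counts for each *Etv4* count in the control pools against 5.53, 4.71 and 5.30 in the mutants. All mutant pools lay below all control pools, with a difference of -0.34 on the log2 scale between means of 2.71 ± 0.05 and 2.37 ± 0.12 (SD, n = 3 pools each). This pair was singled out after its values were seen and is given as a description. Of the 45 pairs of the 10 genes, 11 had a within-pool ratio that did not overlap between groups (24.4%), beside 23.3% of all pairs of genes with a mean of at least 100. The other pairs with *Etv5* that did not overlap were those with *Spry1*, *Dusp6* and *Etv1*.

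**Figure D3:**
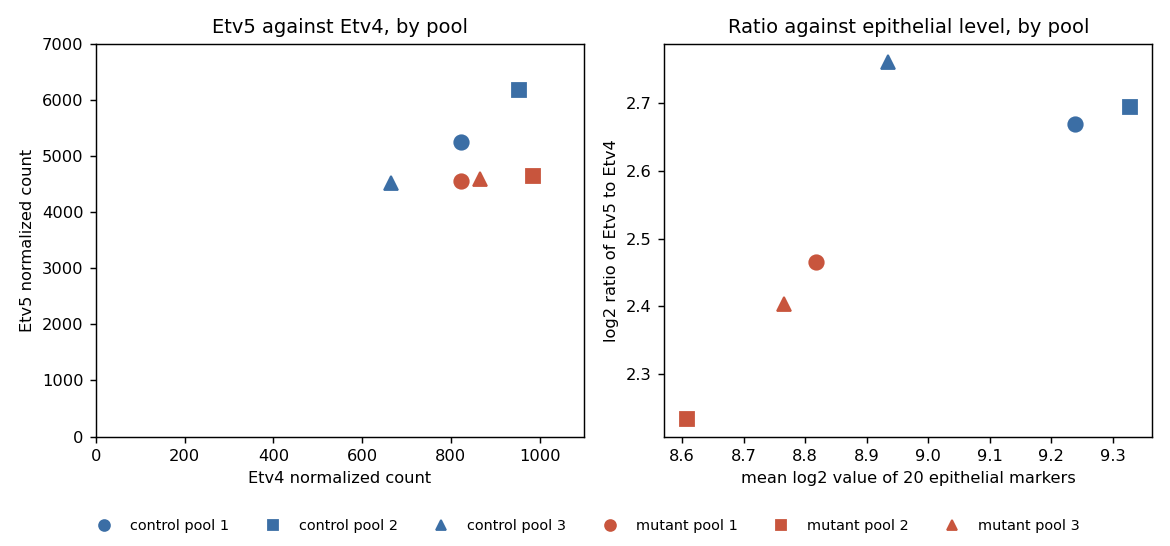
Left, *Etv5* against *Etv4* normalized counts in each pool (both axes from 0). Right, log2 ratio of *Etv5* to *Etv4* against the mean log2 value of 20 epithelial markers in each pool (axes not from 0). Control pools are blue and mutant pools red. The control ratios are 2.67 to 2.76 and the mutant ratios 2.23 to 2.47.

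Levels can be compared between genes only per length of exon. In normalized counts per kilobase of exon, averaged over the 6 pools, *Etv5* stood at 1208, *Dusp6* at 594, *Spry2* at 286 and *Etv4* at 275. They were followed by *Spred1* at 259, *Spry1* at 247, *Spred2* at 236, *Il17rd* at 159, *Spry4* at 68.5 and *Etv1* at 32.8. The median over genes with a known exon length was 89.9, so 8 of the 10 lay above it and *Spry4* and *Etv1* below. *Etv5* and *Dusp6* were each apart from the next gene in every pool. From *Spry2* through *Etv4*, *Spred1* and *Spry1* to *Spred2*, each gene overlapped in range with the next. The ends of that run did not overlap, with *Spry2* at 256 or more and *Spred2* at 245 or less. *Il17rd*, *Spry4* and *Etv1* were each apart from the gene above. Exon length was the union over all annotated transcripts, which lowers the value of genes with long, little-used exons such as *Etv1* (13.3 kb).

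Since the epithelial markers were lower in mutant lungs, each gene was also set against those markers within each pool. Which cells made the RNA of each gene was not measured. The mean log2 value of the 20 markers was 9.24, 9.33 and 8.93 in the control pools against 8.82, 8.61 and 8.77 in the mutants, a difference of -0.44. Subtracting it shifts every gene by the same amount, and 57.2% of all genes tested then had no overlap between groups. The log2 ratios of all 10 genes were higher in mutant lungs, by 0.24 for *Etv5* to 0.61 for *Spry1*, and 9 of the 10 had no overlap (exact permutation p = 0.1 each, the smallest possible). *Il17rd* overlapped (exact permutation p = 0.2). With limma on this scale 8 of the 10 passed, all but *Spry4* and *Etv5*, as did 58.0% of all genes (57.6% of all genes in the same direction). Against *Cdh1* and *Epcam* alone, which differed by -0.62, the ratios were higher by 0.42 to 0.79 and none of the 10 overlapped, as for 73.2% of all genes.

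The direction of these ratios depended on the epithelial gene used. *Sox9*, a transcription factor of the distal epithelial tips that is also made in the cartilage-forming mesenchyme, was not lower in mutant lungs (log2 values 10.81, 10.80 and 11.02 in control pools, 11.01, 10.93 and 11.05 in mutant pools). Set against *Sox9*, 3 of the 10 genes were higher and 7 lower in mutant lungs, from -0.32 for *Etv5* to 0.05 for *Spry1*, and all 10 overlapped between groups, while 18.9% of all genes did not. The signs for *Spry1*, *Spry2* and *Etv4* stayed positive and those for the other 7 genes turned.

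**Figure D4:**
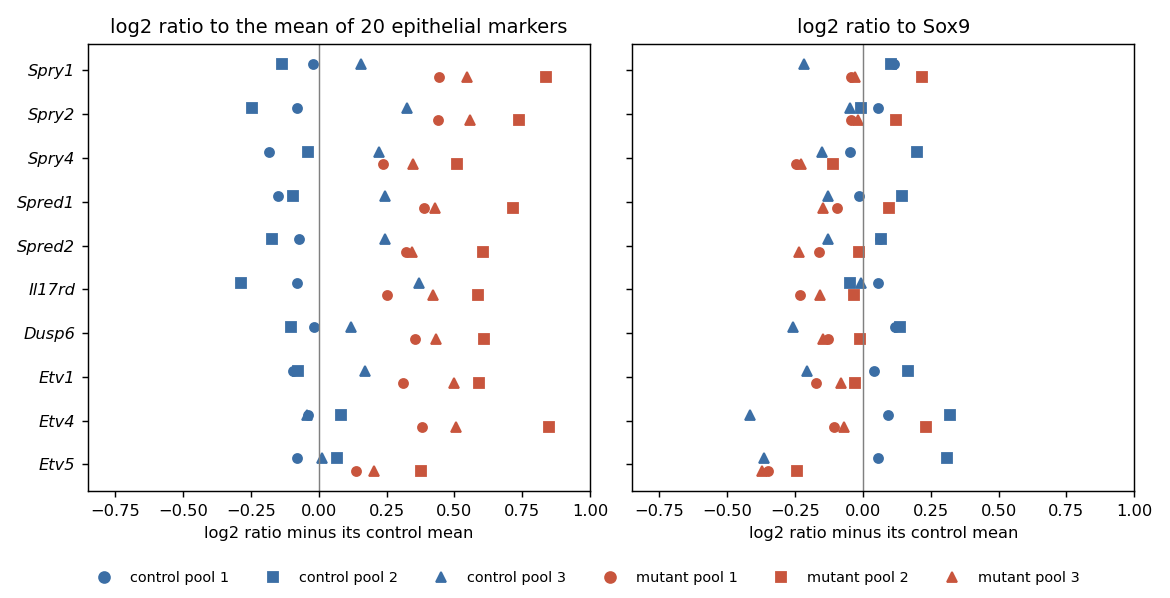
Log2 ratio of each of the 10 genes to the mean of 20 epithelial markers (left) and to *Sox9* (right), each minus its mean in control pools (horizontal axes), for the 3 control pools (blue) and 3 mutant pools (red). On the left the mutant pools lie to the right of the control pools for all genes but *Il17rd*, where they overlap, and on the right the groups overlap for all 10.

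Upstream of the 10 genes, 1 ligand of the pathway passed, with higher values in mutant lungs. *Fgf10*, made by the distal mesenchyme, had 603, 611 and 493 in the control pools against 844, 979 and 841 in the mutants, with a log2 difference of 0.64 ± 0.09 (SE, adjusted p = 0.0322, limma). No mutant pool was below a control pool. It was the only one of 11 tested FGF ligands to pass, 8 of which had a higher mean. The call was lost when control pool 1 or any 1 of the 3 mutant pools was left out (adjusted p = 0.192, 0.109, 0.118 and 0.149, limma, log2 fold changes of 0.57 to 0.69), and it held without control pool 2 or 3. It was also lost without the variance trend, without the filter and with *Xist* as covariate (adjusted p = 0.226, 0.209 and 0.148, limma). The call held in 13 of 20 alternative settings. These included edgeR and DESeq2 on 5 libraries (adjusted p = 0.00248 and 5.63e-06) and on 6 (0.0357 and 4.57e-07). All 12 mesenchymal markers were higher in mutant lungs too, with a median log2 fold change of 0.16. The part of tissue makeup in the *Fgf10* difference was not tested. No receptor passed with limma on the 6 pools. *Fgfr2*, the epithelial receptor of FGF10, had 2941, 3298 and 2936 in the control pools against 2724, 2512 and 2618 in the mutants (log2 fold change -0.22, adjusted p = 0.124, limma). The groups did not overlap, the difference passed without control pool 3 (-0.25, adjusted p = 0.0245, limma) and with *Xist* as covariate (-0.36, adjusted p = 0.0296, limma), and it was 0.21 on the scale of the epithelial markers. *Fgfr4* had 233, 303 and 212 in the control pools against 155, 150 and 157 in the mutants (-0.67, adjusted p = 0.066, limma), and passed without control pool 3 (-0.78, adjusted p = 0.0067) and with *Xist* as covariate (-0.98, adjusted p = 0.0288). *Fgfr1*, the main mesenchymal receptor, was at 0.10 (adjusted p = 0.507, limma). On the reads of all 6 libraries *Fgfr2* and *Fgfr4* passed with DESeq2 (adjusted p = 0.0322 and 0.00557) and not with edgeR (0.119 and 0.0678). On the 5 libraries without control pool 3, *Fgfr1* passed with edgeR and DESeq2 (0.16, adjusted p = 0.0460 and 0.0417), as did *Fgfr2* and *Fgfr4*.

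Of 23 tested genes of the relay from receptor to ERK, none passed, and the lowest p was that of the adaptor *Shc1* (0.14, adjusted p = 0.199, limma), which passed with edgeR and DESeq2 on the 5 libraries (0.16, adjusted p = 0.0456 and 0.0489) and with neither on 6 (0.186 and 0.221). Among 18 other feedback inhibitors and ERK phosphatases, 1 passed. *Dusp9*, another cytoplasmic ERK phosphatase, fell, with 1660, 1809 and 1456 in the control pools against 1216, 1219 and 1209 in the mutants (log2 fold change -0.43 ± 0.07 SE, adjusted p = 0.0398, limma). Among 16 other ERK response genes *Ccnd1*, which encodes cyclin D1, fell, with 7691, 8202 and 7662 in the control pools against 6805, 6370 and 6571 in the mutants (-0.25 ± 0.04 SE, adjusted p = 0.0398, limma). Scaled to the epithelial markers, *Dusp9* was at 0.01 and *Ccnd1* at 0.18. As with *Fgf10*, leaving out control pool 1 or any mutant pool ended both calls (adjusted p 0.153 to 0.255 for *Dusp9* and 0.126 to 0.252 for *Ccnd1*, limma), as did leaving out the variance trend (0.243 for both) or the filter (0.224 and 0.186). *Dusp9* passed in 13 of 20 alternative settings and *Ccnd1* in 12. Both passed on 6 libraries with edgeR (adjusted p = 0.0420 and 0.0424) and DESeq2 (3.69e-05 and 0.000191). With *Xist* as covariate both passed too (adjusted p = 0.0202 and 0.0234, limma).

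None of the 14 other ETS factors passed, and their median log2 fold change was 0.01. The one with the lowest p was *Elk4* (-0.22, adjusted p = 0.417, limma). Heparan sulfate is a sugar chain that FGFs need to bind their receptors, and 24 listed genes encode proteins that make, edit or carry it. None passed, and *Sulf1*, which trims sulfate from the chain, was at 0.16 (adjusted p = 0.156, limma). Of 8 distal tip genes none passed with limma on the 6 pools, with *Wnt7b* at -0.42 (adjusted p = 0.0604) and *Lama1* at -0.35 (adjusted p = 0.0661, limma). These 2 had the largest differences of a list with 3 genes higher and 5 lower, and a median of -0.07. The others were *Mycn* at -0.12, *Bmp4* at -0.11, *Shh* at -0.03, *Id2* at 0.01, *Sftpc* at 0.04 and *Sox9* at 0.12. Without control pool 3, *Sulf1* (0.20, adjusted p = 0.0136), *Wnt7b* (-0.52, adjusted p = 0.000553) and *Lama1* (-0.32, adjusted p = 0.0287, limma) passed. *Wnt7b* also passed with *Xist* as covariate (adjusted p = 0.0110, limma) and with a replicate block (0.0487), and *Wnt7b* and *Lama1* with DESeq2 on 6 libraries (3.15e-05 and 0.00809) but not with edgeR (0.0637 and 0.0624). In all, 3 of 121 tested pathway genes outside the 10 passed (2.48%, beside 0.501% of all genes), 1 higher and 2 lower, and 23 had an unadjusted p under 0.05 (19.0%, beside 13.6%). The pathway lists were chosen with earlier results of these data known, so these shares are a description and their difference was not tested.

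The genes whose log2 values over the 6 pools were most like the mean profile of *Etv4* and *Etv5*, among 11284 genes outside the lists with a mean of at least 100, were *Rrp8*, *Cox6c*, *Ror1*, *Exosc6* and *Hspe1*, with Pearson correlations of 0.992 to 0.989. These are the highest of many values over 6 pools that share depth and tissue makeup, and are given as a description. *Ror1*, a receptor-like kinase, had 1683, 1973 and 1508 in the control pools against 1626, 1751 and 1659 in the mutants, with the same order of pools within each group as *Etv4*.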

How the data were processed

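The sources used here give the following. Lungs were pooled by genotype and libraries were sequenced on the BGISEQ platform. The submitters' processing notes name Trim Galore, HISAT2, featureCounts, DESeq2 and mm10, with no version, order or strand setting. The authors deposited 1 table for the 6 libraries, in which the signal values are normalized counts, that is reads scaled by 1 size factor per library. The deposited table also holds the authors' mean, log2 fold changes with standard errors, a test statistic (score) and p-values. These were not used. In 27 rows a date stands in place of the symbol.

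Normalized counts were compared with limma 3.58.1 in R 4.3.3 (eBayes with a variance trend) on log2(normalized count + 1), a scale that understates changes of low genes, keeping genes that reached 1 in 3 or more libraries. Benjamini-Hochberg adjustment covered all 17168 genes and the threshold was 0.05. Tests measure the spread between pools. In all 6 libraries 100% of values were whole multiples of 1 step (within 0.02 reads). The step of control pool 3 (0.994) is too near 1 for the recovery rule used here, so edgeR 4.0.16 (545 genes called) and DESeq2 1.42.0 (404) were run on the other 5 as alternatives, and on all 6 as alternatives chosen after seeing the data (79 and 277 genes called). Single values were compared by two-sided exact permutation tests. Other alternatives were no trend, upper-quartile and total-count scaling, other filters and pseudocounts (0.1 and 10), a replicate block, each pool left out, log2 *Xist* as covariate, scaling to 20 epithelial markers, and a threshold of 0.1. Steps were tested on simulated data. The 10 genes, the pathway and marker lists and the motif words were chosen with earlier results of these data known. Named genes are the 10, *Rptor*, pathway genes with an adjusted p under 0.05 (otherwise up to 3 per list with the lowest p), up to 2 abundant genes per marker list, and the 5 most like *Etv4* and *Etv5*. Positions are those of GENCODE M21 (GRCm38). Samples of other stages were not analysed here.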

Additional observations from a re-analysis of the deposited data

How the results depend on the processing

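The 0 calls among the 10 genes held without the trend, under upper-quartile and total-count scaling, both other filters, both other pseudocounts, the replicate block, the *Xist* covariate, a threshold of 0.1, and edgeR and DESeq2 on the reads of all 6 libraries. One gene, *Etv5*, was called with edgeR and with DESeq2 on 5 libraries (1 each) and without control pool 3, so the count was 0 to 1 over the pools left out. Scaling to epithelial markers, which shifts the median of all genes to 0.44, called 8 of the 10, moved their median to 0.47 and called 9960 genes. Genes called numbered 8 without the trend, 18 without a filter, 545 with edgeR, 404 with DESeq2 (on 6 libraries 79 and 277), 223 at a threshold of 0.1, and 1 to 468 with 1 pool left out. The median of the 10 genes was 0.000717 to 0.06 with 1 pool left out.

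Some fold changes turned sign under some settings. With *Xist* as covariate *Spred2* was 0.022, *Il17rd* 0.16, *Dusp6* -0.035, *Etv1* -0.029 and *Etv4* -0.037. With edgeR on 5 libraries *Il17rd* was 0.049, *Dusp6* -0.030 and *Etv1* -0.0031, and with DESeq2 0.050, -0.029 and -0.0022. With 1 pool left out, *Spred2* ran from -0.044 to 0.0088, *Il17rd* from -0.081 to 0.050, *Dusp6* from -0.029 to 0.057 and *Etv1* from -0.0037 to 0.072. On the epithelial scale *Spry4* was 0.37, *Spred2* 0.42, *Il17rd* 0.42, *Etv5* 0.24, *Rptor* 0.37, *Fgfr2* 0.21, *Dusp9* 0.0086, *Ccnd1* 0.18, *Elk4* 0.21, *Wnt7b* 0.014 and *Lama1* 0.086. Against *Sox9* the ratio was -0.19 for *Spry4*, -0.049 for *Spred1*, -0.14 for *Spred2* and *Il17rd*, -0.094 for *Dusp6*, -0.093 for *Etv1* and -0.32 for *Etv5*. The cause was not tested.

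Control and mutant pools with the same number are of different embryos. Their deviations correlated at -0.03, 0.17 and 0.06, and those of pools with different numbers at -0.17 to 0.13. With 3 pools per group these values cannot show whether pools were paired. The numbers were not taken as pairs in the main fit. With a replicate block 71 genes and none of the 10 were called (*Etv5*, adjusted p = 0.252, limma), *Ccnd1* no longer passed (adjusted p = 0.0569) and *Wnt7b* did (adjusted p = 0.0487). The spread exceeded that of counting for 9 of the 10 genes among control pools and for 5 among mutant pools. The log2 ratio of *Etv5* to *Etv4*, with alternatives chosen after seeing the data, was -0.39 to -0.27 with 1 pool left out and -0.34 with a pseudocount of 10.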
